A study of Mus musculus with 6 samples.

Results

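The hedgehog pathway genes described here are Ptch1, Smo, Gli1, Gli2, Gli3, Sufu, Hhip, Gas1 and Boc. Their probes were found by matching the accession printed for each probe on the arrays to mouse RefSeq genes. This matching uses no measured value, but the genes were chosen with earlier results of these data known. All 9 genes had a probe, 13 probes in all, among the 23458 genes that the arrays measured. The study asked how PGC-1α, a transcriptional coactivator best known for raising mitochondrial gene expression, changes gene expression in microglial cells. RNA came from BV2, an immortalized mouse microglial line, and each of the 6 arrays held 1 RNA sample. The 3 control arrays held cells without PGC-1α overexpression, the 3 overexpression arrays held cells with it, and every sample had received LPS (lipopolysaccharide), a bacterial membrane component that triggers inflammation, so that untreated cells were not compared. Overexpression came from a lentivirus with a ubiquitin promoter, and the infected cells were selected with puromycin. The methods name a negative-control virus, but the labels do not say whether the control arrays carried it. Nothing states that replicates were separate cultures, so p-values measure the spread between these samples, which may be technical.

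Hedgehog signalling starts at the cell surface. A secreted hedgehog ligand binds the receptor Patched1 (Ptch1), which otherwise holds the membrane protein Smoothened (Smo) inactive. Freed Smoothened gathers in the primary cilium and releases the GLI transcription factors from SUFU, their cytoplasmic inhibitor. Gli2 is the main activator of the family, Gli3 acts largely as a repressor after partial proteolysis, and Gli1 is an activator that is itself induced by the pathway. Ptch1 and Hhip, a membrane protein that traps the ligand, are also induced by GLI factors and close a negative feedback loop. Boc and Gas1 are co-receptors that present the ligand to Patched1. In the nervous system the pathway is known for patterning the neural tube and for driving the growth of neural progenitors.

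Levels are given as the log2 of a probe's background-subtracted intensity minus the log2 of the 75th percentile of its own array, so that 0 is the level of that percentile and differences are log2 fold changes, overexpression minus control. Probes entered the test where the scanner software marked them as well above background on every array of either group, and a gene was represented by the brightest of its probes that did. The fit was limma over all 17168 genes tested, or over all 39294 probes tested where single probes are compared, with Benjamini-Hochberg adjustment and a threshold of 0.05. For 1 probe taken alone the exact permutation test cannot go below a two-sided p of 0.1 with 3 arrays against 3. The 75th percentile of the intensity lay between 1617 and 1893 on control arrays and between 856 and 1268 on overexpression arrays, so all overexpression arrays were dimmer before scaling. Over all genes the median shift was 0.23 on the log2 scale, or 0.03 with quantile normalization instead, and the values below are to be read against it. Ppargc1a, which encodes PGC-1α, was well above background on 2 arrays of each group at its brighter probe. Its intensities there, before scaling, were 21.8, 19.6 and 9.06 on control arrays and 22.3, 22.1 and 21.2 on overexpression arrays. Neither of its 2 probes was tested, and their position within the transcript is unknown, so the labels have no firm check in them. Of 12 microglia and macrophage markers, 10 were well above background on all 6 arrays, while Cx3cr1 and P2ry12 were on none. The summed level of these 12, in multiples of the 75th percentile, was 88.4 to 91.8 on control arrays and 124 to 147 on overexpression arrays. For 5 fibroblast markers it was 15.4 to 16.6 and 26.6 to 32.0, for 5 neuron markers 24.3 to 29.8 and 36.5 to 49.8, for 5 oligodendrocyte markers 1.05 to 1.15 and 1.18 to 1.33, and for 5 astrocyte markers 0.248 to 0.292 and 0.415 to 0.542. Slc1a3 and S100b of the astrocyte list and Syt1 of the neuron list were well above background on no array. Such sums weigh the brightest markers most. Gene by gene, 5 of 10 tested microglia and macrophage markers were higher and 1 lower, with 4 and 1 of 5 for fibroblasts. For neurons it was 2 and 1 of 4, for oligodendrocytes 1 and 0 of 5, and for astrocytes 2 and 0 of 3. Over all genes tested 36.7% were higher and 19.5% lower. The part of these markers in the hedgehog values was not tested. All samples were of the BV2 line, so the levels of these markers are not read as numbers of cells of those types. Whether a level moved in all cells or in a part of them cannot be told from such samples.

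Smo and Gli1 were lower with PGC-1α overexpression, Gli2 was not well above background on overexpression arrays, and the probes of Ptch1 and of Sufu differed among themselves. Of the 5 genes with a tested probe, Smo, Gli1 and Gli2 fell, Ptch1 rose at the probe that stands for it and Sufu did not pass. The 3 that fell compare with 19.5% of all genes tested that were lower, and the 1 that rose with 36.7% that were higher. Gli2 entered the test only through the control arrays, where it is high. Among genes well above background on all 6 arrays, 4 members were tested, with 2 lower and 1 higher, against 19.4% lower and 36.7% higher of the 16095 such genes. After quantile normalization the counts of member genes were again 3 lower and 1 higher, against 20.7% lower and 21.5% higher over all genes. Counted by probe, 5 of the 8 tested probes were lower and 1 was higher, against 18.2% and 35.2% of all probes. The median log2 fold change of the 5 member genes was -0.53, and -0.55 after quantile normalization. Gli1 was lower by a log2 fold change of 1 or more, and so was Gli2 by the approximate lower bound given below, 1.33. Over all genes 7.46% reached that size downwards and 6.66% upwards. At that size 3 member probes were lower, those of Gli1 and Gli2 and 1 of Sufu, against 8.34% of all probes. Gli3, Hhip, Gas1 and Boc had no tested probe because their signals lay at or near background. The filter admits probes that are bright in either group, so counts over the tested genes are no statement about all 9.

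The promoters of 7 of the 9 genes were matched in a RefSeq table of the mouse build GRCm38.p6, and Gli1 and Boc were not. Those of Smo, Sufu, Gli2 and Ptch1 are shown because these genes had tested probes, and because Ptch1 is a described GLI target. Each run is the 250 bases before a gene start that the table lists, 5′ to 3′ on the strand of the gene. The listed starts of Ptch1 and Gli2 lie 7725 and 786 bases inside the RefSeq span of the gene, so they are not the outermost start, while those of Smo and Sufu are at its edge. Smo is at chr6:29735247-29735496 (plus strand), Sufu at chr19:46396646-46396895 (plus strand), Gli2 at chr1:119053620-119053869 (minus strand) and Ptch1 at chr13:63565736-63565985 (minus strand). Capitals mark matches on either strand to the GLI consensus GACCACCCA, to its inner letters ACCACCC, which every match to the consensus contains, or to the GC box core GGGCGG.
Smo: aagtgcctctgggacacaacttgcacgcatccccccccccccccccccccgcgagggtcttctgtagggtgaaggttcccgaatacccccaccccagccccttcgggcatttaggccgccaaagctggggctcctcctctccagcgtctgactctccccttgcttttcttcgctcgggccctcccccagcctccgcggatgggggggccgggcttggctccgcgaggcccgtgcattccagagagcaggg
Sufu: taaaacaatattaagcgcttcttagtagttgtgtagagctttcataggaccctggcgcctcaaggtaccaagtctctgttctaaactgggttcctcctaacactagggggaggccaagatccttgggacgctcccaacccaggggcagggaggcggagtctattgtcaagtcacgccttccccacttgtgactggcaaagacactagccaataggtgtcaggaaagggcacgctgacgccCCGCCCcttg
Gli2: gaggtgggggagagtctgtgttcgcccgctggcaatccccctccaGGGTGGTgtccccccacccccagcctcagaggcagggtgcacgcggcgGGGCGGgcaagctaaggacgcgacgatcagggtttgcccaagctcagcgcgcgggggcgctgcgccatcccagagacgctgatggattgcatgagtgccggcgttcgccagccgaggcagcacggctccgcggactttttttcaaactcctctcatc
Ptch1: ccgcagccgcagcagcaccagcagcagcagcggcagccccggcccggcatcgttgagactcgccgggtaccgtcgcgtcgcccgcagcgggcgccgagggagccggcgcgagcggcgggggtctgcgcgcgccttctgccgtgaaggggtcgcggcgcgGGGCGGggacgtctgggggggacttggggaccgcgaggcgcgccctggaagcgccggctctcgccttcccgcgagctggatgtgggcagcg
The full consensus GACCACCCA was in none of the 7 promoters, and in 0.225% of all 32851 promoters of this length. The inner letters ACCACCC were found in the Gli2 promoter, on the opposite strand, and in 3.92% of all promoters. A GC box core was in 6 of the 7, all but that of Smo, and in 32.7% of all promoters. The 7 promoters had a GC content of 54.0% (Sufu) to 78.4% (Ptch1), where the median over all promoters was 52.4%. These matches describe letters in a fixed window, and factor binding was not measured in these samples.

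Ptch1, the receptor that restrains Smoothened, was measured by 2 probes that did not move alike, so its direction depends on the probe. At probe A_51_P127435, which stands for the gene, the levels were -2.03, -2.22 and -2.43 on control arrays and -1.36, -1.34 and -1.45 on overexpression arrays. All overexpression arrays lay above all control arrays. The mean rose from -2.23 ± 0.20 (SD, n = 3) to -1.38 ± 0.06 (SD, n = 3), a log2 fold change of 0.84 (SE, the standard error, 0.14, 95% confidence interval 0.52 to 1.16, adjusted p = 0.0021 from limma), or 1.79-fold. Before scaling, the intensities of this probe overlapped, with 396, 349.8 and 351 on control arrays and 451, 338 and 463 on overexpression arrays. The rise is therefore relative to arrays that were dimmer as a whole. It was 0.78 within slide 1, which held replicates 1 and 2 of both groups, and 0.98 within slide 2, which held the third of each. Probe A_55_P2741038 gave -1.96, -1.96 and -1.99 on control arrays and -2.19, -2.03 and -2.17 on overexpression arrays. Its log2 fold change was -0.16 (95% confidence interval -0.45 to 0.13, adjusted p = 0.30 from limma), which did not pass the threshold. A_51_P127435 is the brighter probe over all arrays only through the overexpression arrays, since on control arrays A_55_P2741038 was the brighter. If the probe brightest on control arrays stands for each gene, an alternative added after the data were seen, Ptch1 was not called (adjusted p = 0.27 from limma) and the members counted 3 lower and 0 higher. The gene-level rise of Ptch1 is thus no more than the rise of 1 of its probes. With the mean of both probes in place of the brighter one, the log2 fold change of Ptch1 was 0.34 and its adjusted p from limma 0.038. The ratio of the probes within an array is free of the scaling between arrays. The log2 of A_51_P127435 over A_55_P2741038 was -0.26 ± 0.18 (SD, n = 3) in the control group and 0.74 ± 0.08 (SD, n = 3) in the overexpression group, a shift of 1.00 (exact permutation test, two-sided p = 0.1, the smallest possible). Log2 fold changes lay at least as far apart in 15.4% of the 6042 genes that had more than 1 tested probe, and the position of the Ptch1 probes within the transcript is unknown.

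**Figure D1:**
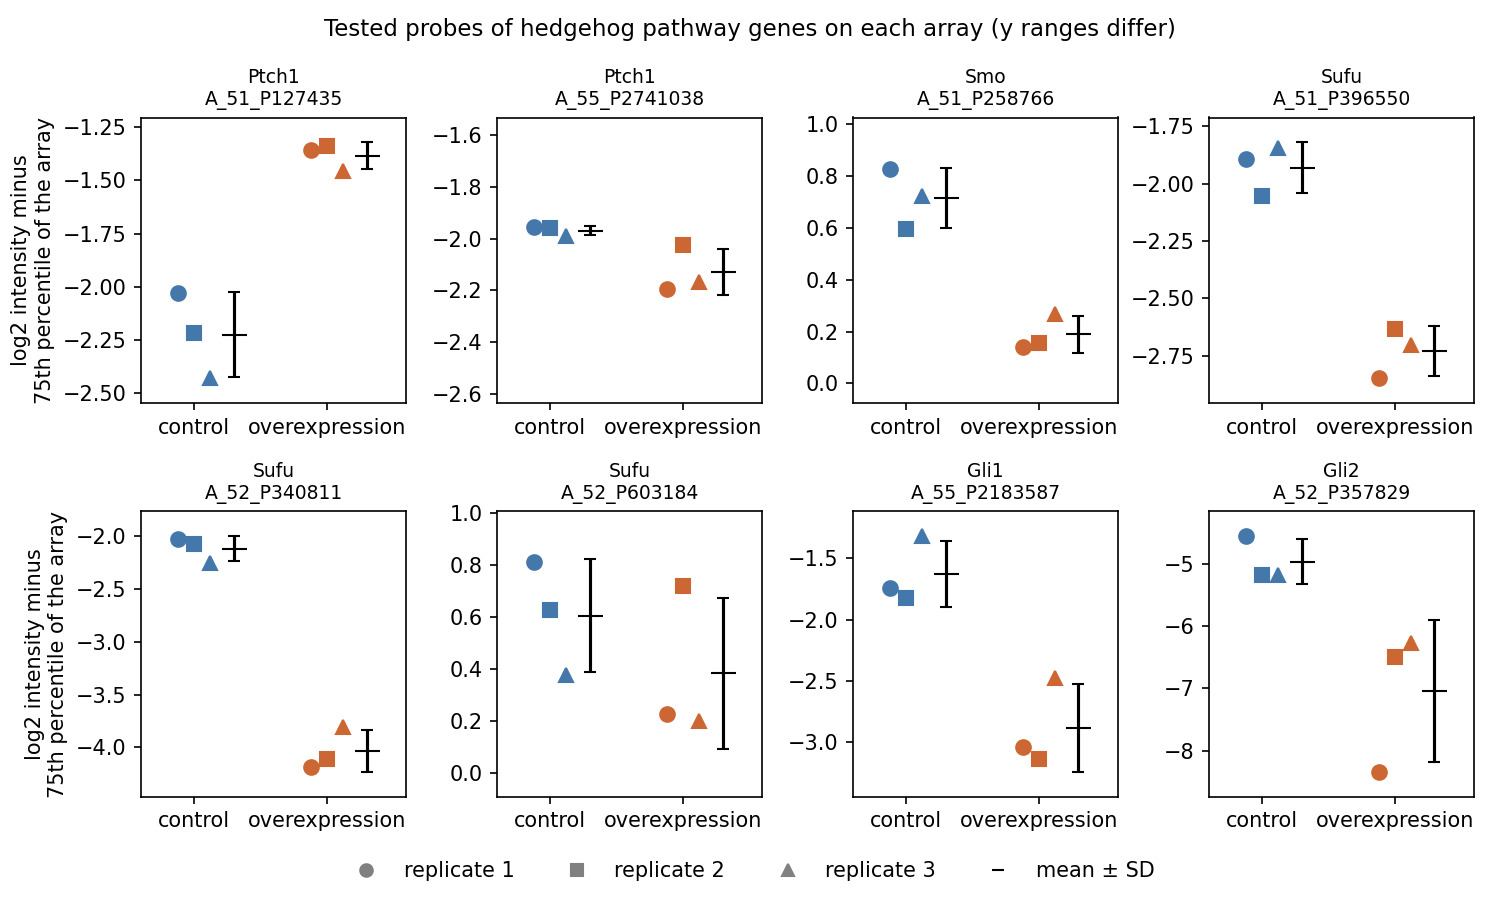
Level of each of the 8 tested probes on each array, as log2 intensity minus the 75th percentile of the array, with replicates 1, 2 and 3 as circle, square and triangle and the mean ± SD beside them. The overexpression arrays lie above the control arrays for Ptch1 probe A_51_P127435, below them for 6 probes, and overlap them for Sufu probe A_52_P603184. Of these 6, Ptch1 probe A_55_P2741038 did not pass the threshold, and Gli2 lay at background on overexpression arrays. How many of all tested probes have groups that lie apart was not counted.

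Smo, the signal transducer of the pathway, had 1 probe (A_51_P258766), well above background on all 6 arrays. Its levels were 0.83, 0.60 and 0.72 on control arrays and 0.14, 0.16 and 0.27 on overexpression arrays. The lowest control array was above the highest overexpression array. Smo fell from 0.71 ± 0.12 (SD, n = 3) to 0.19 ± 0.07 (SD, n = 3), a log2 fold change of -0.53 (SE 0.12, 95% confidence interval -0.81 to -0.24, adjusted p = 0.0083 from limma), or 1.44-fold. The intensities before scaling were 2866, 2458 and 3119 in the control group and 1276, 953 and 1528 in the overexpression group, also without overlap. The difference was -0.56 within slide 1 and -0.45 within slide 2.

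Sufu, which retains GLI factors in the cytoplasm, had 3 tested probes, all well above background on every array. Probe A_52_P603184, the brightest, gave 0.81, 0.63 and 0.38 on control arrays and 0.23, 0.72 and 0.20 on overexpression arrays. The groups overlapped through overexpression replicate 2, and the log2 fold change of -0.22 (95% confidence interval -0.65 to 0.20) did not pass the threshold (adjusted p = 0.32 from limma). The other probes fell. Probe A_51_P396550 gave -1.89, -2.05 and -1.84 on control arrays and -2.85, -2.63 and -2.70 on overexpression arrays, a log2 fold change of -0.80 (SE 0.13, adjusted p = 0.0029 from limma). Probe A_52_P340811 gave -2.03, -2.08 and -2.25 on control arrays and -4.18, -4.11 and -3.81 on overexpression arrays, a log2 fold change of -1.92 (SE 0.15, adjusted p = 0.00014 from limma). At both of these probes no overexpression array reached the lowest control array. Within slide 1 and slide 2 the difference was -0.77 and -0.86 at the former probe and -2.10 and -1.56 at the latter. Whether Sufu as a gene is called thus depends on the probe. The mean of its probes had a log2 fold change of -0.98 (adjusted p = 0.0011 from limma), and array weights gave the brightest probe -0.38 (adjusted p = 0.029 from limma). Within an array, the log2 of A_52_P340811 over A_52_P603184 was -2.72 ± 0.11 (SD, n = 3) in the control group and -4.42 ± 0.41 (SD, n = 3) in the overexpression group, a shift of -1.69 (exact permutation test, two-sided p = 0.1, the smallest possible). Probes lay at least this far apart in 4.82% of these 6042 genes.

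The transcriptional effectors were lower where they could be measured. Gli1, the activator that is itself a target of the pathway, was measured by probe A_55_P2183587, well above background on every array. Its levels were -1.74, -1.82 and -1.32 on control arrays and -3.04, -3.14 and -2.47 on overexpression arrays. Replicate 3 was the highest array of either group, and the groups did not overlap. Gli1 fell from -1.63 ± 0.27 (SD, n = 3) to -2.88 ± 0.36 (SD, n = 3), a log2 fold change of -1.25 (SE 0.21, 95% confidence interval -1.74 to -0.77, adjusted p = 0.0024 from limma), or 2.39-fold. The intensities before scaling were 483, 459 and 758 against 141, 97.2 and 228. Its difference was -1.30 within slide 1 and -1.15 within slide 2, and it passed under all 22 alternatives with a test.

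Gli2, the main activator, was measured by probe A_52_P357829, which was well above background on every control array and no overexpression array. Its intensities before scaling were 68.6, 45.0 and 52.2 in the control group and 3.57, 9.44 and 16.4 in the overexpression group. The overexpression signals are therefore at background, where only a bound can be given, and the gene was tested only because it is high in the other group. An approximate bound came from the higher of the probe's own level and the dimmest signal well above background on each overexpression array. Against it Gli2 was 2.51-fold lower. It is not strict, since Ppargc1a at 21.2 to 22.3 was well above background on only 2 of the 3 overexpression arrays. The adjusted p of 0.0089 from limma is no test of this bound, since it used the measured levels. Those levels were -4.56, -5.18 and -5.18 on control arrays and -8.34, -6.50 and -6.28 on overexpression arrays. Overexpression replicate 1 was the lowest, and without it the adjusted p was 0.0053. The measured difference was -2.55 within slide 1 and -1.10 within slide 2, and neither size can be read beyond the bound. Background correction by normexp, which adds an offset of 50 to every signal, followed by the 75th percentile, left a log2 fold change of -0.09 (adjusted p = 0.68 from limma), so the call of Gli2 ended there, while normexp with quantile normalization gave -0.55 (adjusted p = 0.0070 from limma).

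**Figure D2:**
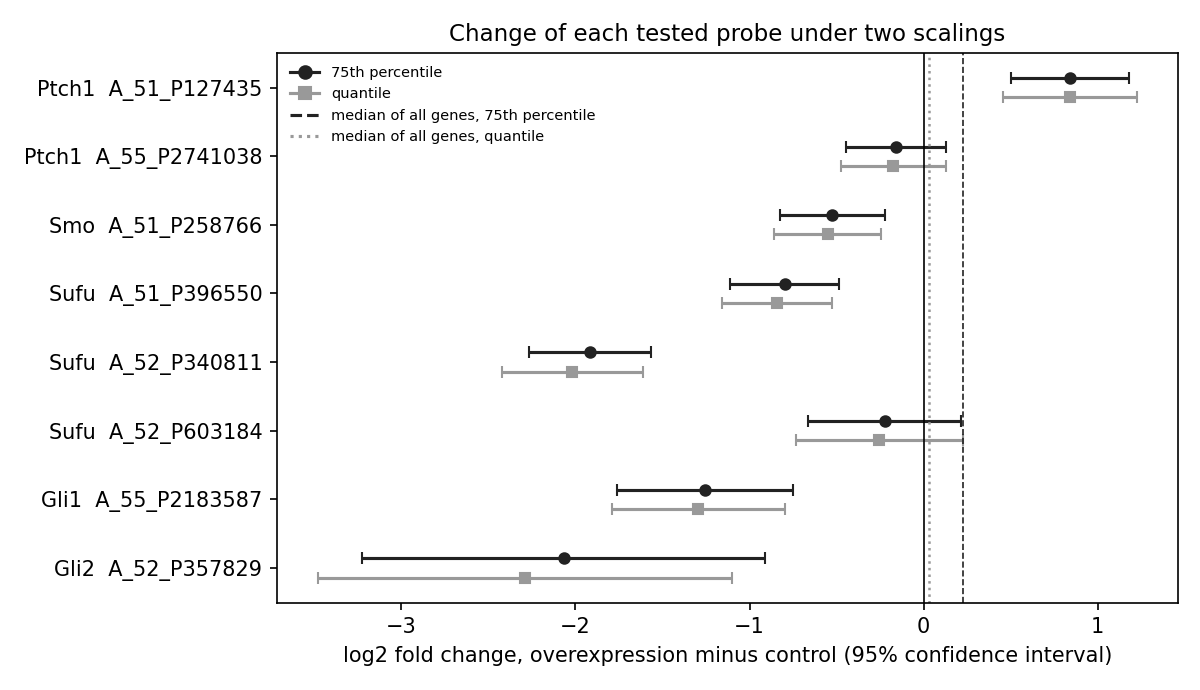
Log2 fold change of each tested probe with its 95% confidence interval, after 75th percentile scaling (circles) and after quantile normalization (squares), with the median of all genes under each as a dashed and a dotted line. The intervals of Ptch1 probe A_55_P2741038 and Sufu probe A_52_P603184 include 0 under both scalings, and the other 6 do not. The size for Gli2 is measured against background, where only a bound holds.

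Gli3, the main repressor of the family, was well above background on 1 array, overexpression replicate 3, at an intensity of 25.4, and lay between 10.2 and 15.6 on the other 5. Boc, a co-receptor, gave intensities of 16.7, 19.8 and 11.8 on control arrays and 24.1, 17.0 and 17.4 on overexpression arrays. It was well above background on 2 arrays of each group, and the intensities before scaling overlapped. After scaling the levels of Boc did not overlap. They were -6.60, -6.36 and -7.33 on control arrays and -5.58, -5.65 and -6.19 on overexpression arrays, all near background. Gas1, the other co-receptor, was well above background on no array, with intensities of 2.34 to 5.65. Hhip, the ligand trap, had 2 probes. A_55_P1969276 was well above background on no array, with intensities of 2.46 to 10.8, and A_66_P132865 on overexpression replicate 1 alone, at 22.9. The other arrays gave 4.49 to 12.6 at that probe. From all 6 arrays no fold change is given for these genes, since both groups lay at or near background. Boc met the filter only where control replicate 3 or overexpression replicate 3, the arrays on which it was not well above background, was left out.

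**Figure D3:**
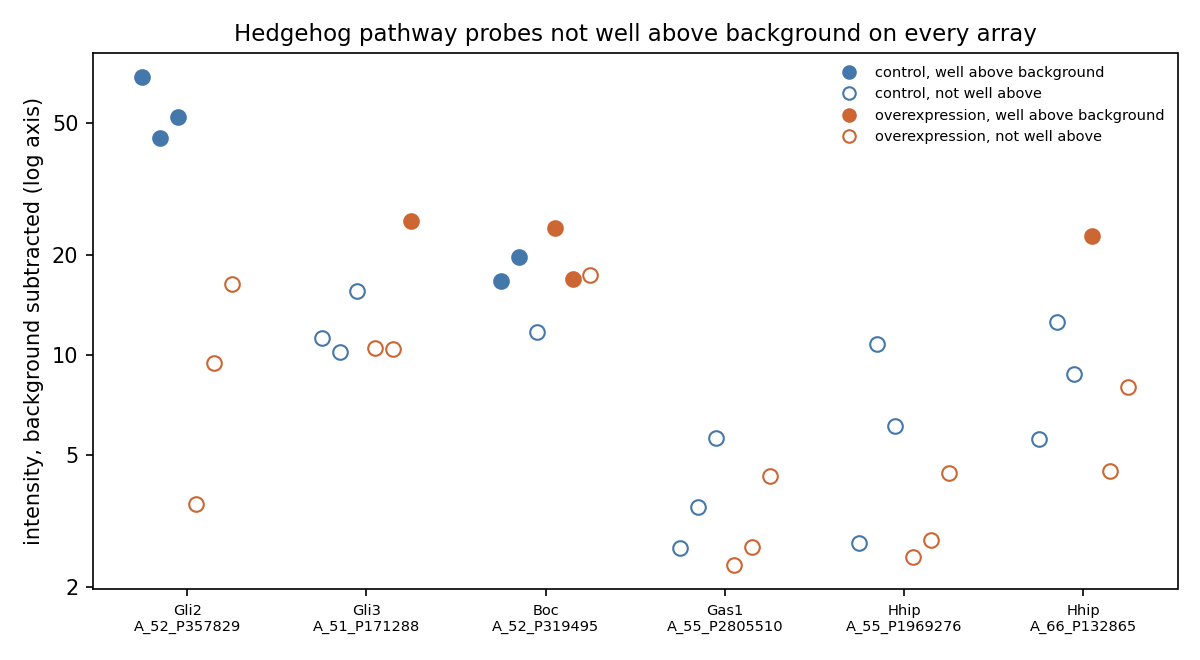
Background-subtracted intensity, on a log axis, of the 6 probes that were not well above background on every array, with filled points where the scanner software marked the spot as well above background. Gli2 has filled control points at 45.0 to 68.6 and open overexpression points, and the other probes reach at most 25.4.

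The rest of the pathway was described with lists of 77 genes, of which 67 were tested. Of these, 23 were higher and 17 were lower, 34.3% and 25.4% of the tested genes, against 36.7% and 19.5% of all genes. After quantile normalization 12 were higher and 16 lower. The share that was higher therefore moved with the scaling, as it did over all genes.

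Among 9 genes of the ligands and their release, 7 were tested. Shh and Scube1, which encodes a secreted carrier of ligand, were well above background on no array. Ihh, the Indian hedgehog ligand, rose by a log2 fold change of 1.32 (SE 0.20, adjusted p = 0.0015 from limma), from -4.67, -4.79 and -5.31 on control arrays to -3.59, -3.37 and -3.83 on overexpression arrays. The groups did not overlap, and both of its probes rose, the other by 0.37. Dhh, the desert hedgehog ligand, had a log2 fold change of -0.05 (adjusted p = 0.74 from limma). Of the release factors, Scube2 rose by 0.89 at the probe that stands for it and by up to 1.01 at its 3 probes, and Scube3 fell by 1.67 on the log2 scale. Disp1, which exports the lipid-bearing ligand, rose by 0.43 at its brighter probe, while its other probe was at -3.25 and also passed. Disp2, its relative, was at -0.04 and did not pass. Hhat, which attaches palmitate to the ligand, fell by 0.34 on the log2 scale at its brighter probe (adjusted p = 0.047 from limma). Its adjusted p was 0.10 after quantile normalization. The other probe of Hhat was at 0.48, and where single probes were compared neither passed.

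Of 6 other receptors and co-receptors, 3 were tested and 1 passed. Cdon, a co-receptor related to Boc, rose by 0.79 (adjusted p = 0.024 from limma), but its adjusted p was 0.060 after quantile normalization. Lrp2, an endocytic receptor, was at 0.34 and did not pass at the probe that stands for it.

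All 13 regulators of Smoothened were tested, with 5 higher and 3 lower. Evc and Evc2, which form a ciliary complex that passes on the signal of Smoothened, rose by 0.74 and 0.78 on the log2 scale. Evc2 was well above background on 2 of the 3 control arrays and was tested through the overexpression group, where it is high. Gpr161, a receptor that restrains the pathway through cAMP in the cilium, rose by 0.70, and Grk2, a kinase of Smoothened, by 0.52, but Grk2 was at 0.12 after quantile normalization (adjusted p = 0.52 from limma). Iqce, which anchors the Evc complex, rose by 0.61 at its brighter probe and was at -1.59 at the other, both past the threshold. Mgrn1, a ubiquitin ligase that acts on Smoothened, was at -0.37 and Efcab7, a partner of Iqce, at -0.62, both past the threshold, which Mgrn1 missed after quantile normalization (adjusted p = 0.065 from limma). The other probe of Efcab7 was at 0.26 and did not pass. After quantile normalization 4 genes of this list were higher and 2 lower.

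Of 19 kinases and degradation factors of the GLI proteins, all tested, 10 were higher and 3 lower, but after quantile normalization only 2 were higher. Kctd11, an antagonist of GLI activity, fell by 1.30 on the log2 scale (adjusted p = 0.00065 from limma), Btrc, the F-box protein that marks phosphorylated GLI for degradation, by 0.66, and Numb, which promotes degradation of Gli1, by 0.44. Gsk3b and Csnk1d, kinases of GLI proteins, rose by 0.59 and 1.00 at the probes that stand for them, while other probes of the same genes were at -1.13 and -0.68 and passed as well. Of 3 tested probes each, 1 was higher and 1 lower for Gsk3b, and 2 were higher and 1 lower for Csnk1d. Their direction therefore depends on the probe, and the reason was not tested.

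Of 16 cilium and intraflagellar transport genes, all tested, 2 were higher and 3 lower, 12.5% and 18.8%, and 11 did not pass. Rab23, a negative regulator of the pathway, fell by 1.33 on the log2 scale at its brighter probe and by 1.10 at the other. Tctn1, of the ciliary transition zone, fell by 0.90 at its brighter probe and was at 0.09 at the other, which did not pass. Kif3b, a subunit of the transport motor, fell by 0.50. Arl13b, a ciliary GTPase, rose by 0.82 at its brighter probe and was at -0.14 at the other, which did not pass. Ttbk2, a kinase that starts cilium assembly, rose by 0.71 at its brighter probe and was at -1.29 at the other. Ift88, a transport subunit, was at -0.03.

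Of 14 other genes described as GLI targets, 9 were tested, and 6 of them (66.7%) were lower and 2 higher. Over all genes tested 19.5% were lower and 36.7% higher. The count of this list that was lower was again 6 after quantile normalization, where 20.7% of all genes were lower. The median log2 fold change of the list was -0.54, against 0.23 for all genes. Foxf1, a forkhead factor, fell by 2.11 on the log2 scale (adjusted p = 0.00079 from limma), though only 2 of the 3 overexpression arrays measured it above background and it was tested through the control group, where it is high. Lower values were also found for Cdk6, a cell cycle kinase (-1.09), Jag2, a Notch ligand (-0.65), and Foxm1, a cell cycle forkhead factor (-0.60), all past the threshold. Ccnd1, which encodes cyclin D1, was at -0.54 and Snai1, a transcriptional repressor, at -0.36, both past the threshold. Nkx6-1, a neural tube transcription factor, rose by 0.87, and Ccnd2, another cyclin, by 0.42, but Ccnd2 was at 0.07 after quantile normalization (adjusted p = 0.73 from limma), which left 1 gene of the list higher. The other probe of Ccnd2 was at -0.05, and where single probes were compared neither passed. These target genes have many inputs besides hedgehog, and the list was not tested as a set. It was chosen with earlier results of these data known, so its shares only describe the genes listed. Grk2, Mgrn1, Efcab7, Numb, Kif3b, Ift88, Ccnd1, Snai1, Nkx6-1 and Ccnd2 were named after their values were seen, to complete the counts or as an example.

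**Figure D4:**
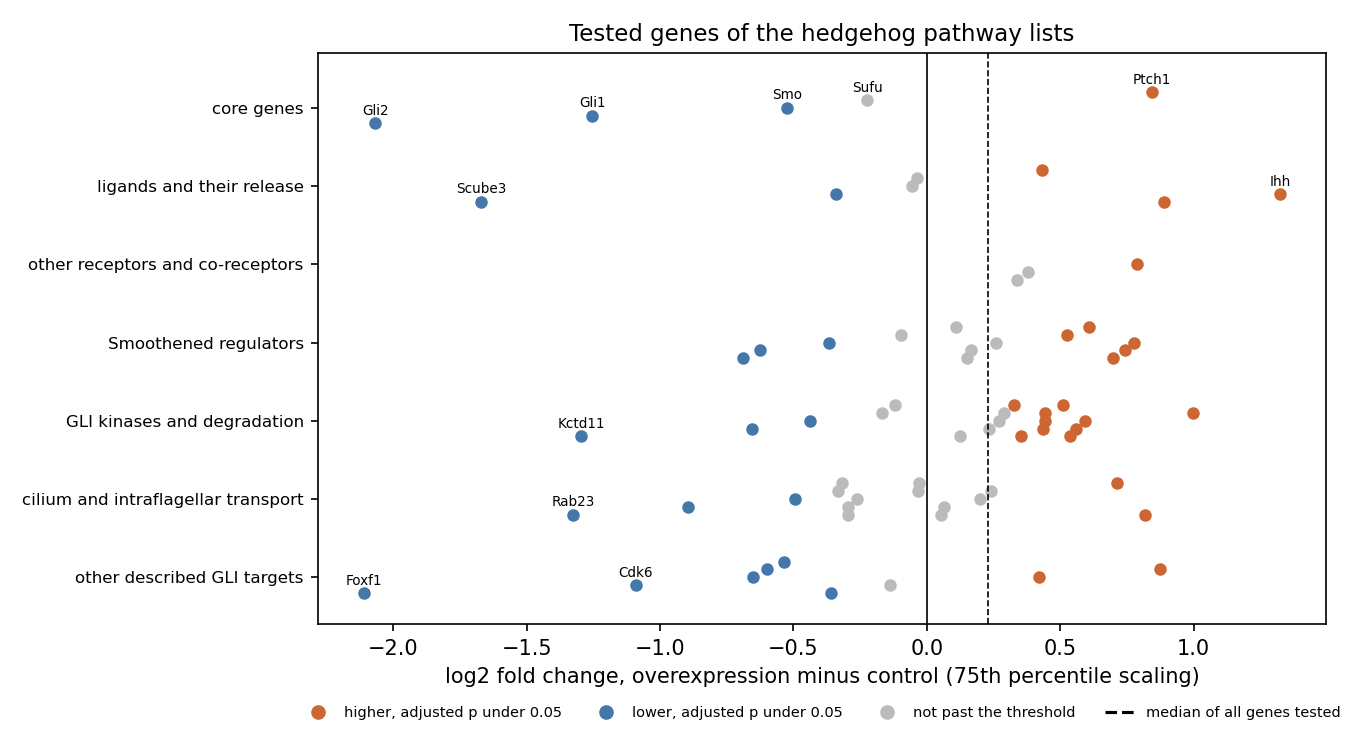
Log2 fold change of the 5 tested member genes and of the 67 other tested pathway genes, by list, after 75th percentile scaling, coloured where the adjusted p was under 0.05, with the median of all genes tested (0.23) as a dashed line. The described GLI targets have 6 of 9 tested genes past the threshold on the lower side, against 19.5% of all genes tested. All lists were chosen with earlier results of these data known. Ihh is the ligand on the higher side.

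Among 71 candidates, the other tested members and the tested genes of these lists, the gene most like each member over the 6 arrays was Ihh for Ptch1 (Pearson's r = 0.99), Kctd11 for Smo (0.99), Foxm1 for Gli1 (0.96), Foxf1 for Gli2 (0.95) and Ift122, a transport subunit, for Sufu (0.95). The 6 arrays fall into 2 groups, so these coefficients largely describe genes that differ between the groups in the same direction. Sufu and Ift122 are the exception, since they did not pass. Gli2 lay at background on overexpression arrays, so its coefficient rests in part on background signals. Both Gli2 and Foxf1 were also tested only through the control group, where they are high.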

How the data were processed

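The samples were 6 total RNA samples of BV2 cells after LPS, 3 without and 3 with PGC-1α overexpression, grouped by the sample labels and hybridized to Agilent mouse arrays. Cy3 is the dye on the labels and Cy5 the dye in the methods, and the scanner files hold a green channel. The authors' scanner software, Agilent Feature Extraction, measured the intensity of each spot, subtracted background and set the flags, and deposited these intensity values with no scaling from array to array. Log2 values for 42110 probes, which the authors normalized in GeneSpring by an unnamed procedure, served as an alternative. The arrays' design names an older mouse assembly, so no probe positions are given.

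Of 56605 probes, 33762 matched 1 RefSeq gene by accession. Each array lost 149 to 1590 outlier spots, repeated spots were averaged, and probes with fewer than 2 values in a group were not tested. Per array 41122 to 45165 of 59305 spots were well above background and 0 were saturated. Precision is limited by the number of arrays. Two-sided tests came from limma 3.58.1 (lmFit, eBayes) under R 4.3.3, with Python 3.11.15, pandas 2.3.3 and matplotlib 3.10.9 for tables and plots, and the steps were tested on simulated data. The lower bound for Gli2 used, on each overexpression array, the higher of the dimmest signal well above background and the probe's own signal, as normalized log2 means. All 9 genes with every probe were named, all ligand genes, and in the other lists up to 4 tested genes with the smallest adjusted p and any gene whose probes passed in opposite directions. The genes and lists were chosen with earlier results of these data known, so no list-wide test was run, and some genes that these rules name are not reported here. Alternatives concerned scaling, background correction, filters, probes per gene (including the probe brightest on control arrays, added after the data were seen), slide and replicate blocks, variance model, array weights, threshold, and leaving out each array.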

Additional observations from a re-analysis of the deposited data

How the results depend on the processing

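Of 166 recalculations of single genes and probes with a test, 162 kept their direction and their side of the threshold, 3 changed side and 1 reversed. Ptch1 reversed to -0.16 and lost its call (adjusted p = 0.27) with the probe brightest on control arrays, an alternative chosen after seeing the data. The side changed for Gli2 with normexp and the 75th percentile (-0.09) and for Sufu with the mean of its probes (-0.98) and with array weights (-0.38). Of the 162, 10 moved by more than 1.5 times, among them Ptch1 with the mean of its probes (0.34), Gli2 with normexp and quantile normalization (-0.55), Sufu probe A_52_P340811 with normexp and the 75th percentile (-1.10), and Sufu without 5 of the 6 arrays in turn (-0.39 to -0.12, never past the threshold). The 16 differences within a slide, which have no test, kept their direction, and those of Gli2 within slide 2 (-1.10) and of Sufu probe A_52_P340811 within slide 1 (-2.10) and slide 2 (-1.56) moved by more than the replicate SD. Normexp with the offset raises dim signals towards a common floor, and for the others the cause was not tested. Across alternatives the highest adjusted p from limma was 0.036 for Smo and 0.012 for Gli1. Asking for a log2 fold change of 1 as well left 2 of the 4 member genes, 3 of the 6 member probes and 6 of the 40 pathway genes, as a stricter threshold must. Leaving out 1 array gave 4 to 5 member genes, 6 to 7 member probes and 28 to 39 pathway genes, the fifth member gene being Boc, which lies near background. With the replicate block there were again 4 member genes, 6 member probes and 40 pathway genes, and over all genes 10554 passed in place of 9636. Deviations of same-numbered arrays correlated at -0.21, 0.00 and 0.59 for replicates 1, 2 and 3. Those of control replicate 1 and overexpression replicate 2 correlated at 0.53. Whether the numbers pair the samples cannot be decided from these values, since replicate 3 of both groups shared slide 2. Quantile normalization lowered the pathway count to 28, and the authors' log2 values gave 4 member genes and 32 pathway genes. Only genes well above background on all 6 arrays left 3 member genes, and so did normexp with the 75th percentile. The 5 untested probes are limited by background, not by the number of arrays alone.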
